A study of Mus musculus with 8 samples.

Results

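The regions described here are the ChIP-seq summits of V5-tagged ZGLP1 that lay deep inside genes, away from the annotated ends of protein-coding genes. They were chosen by position alone: a summit on chromosomes 1 to 19 or X belonged to the set when it fell inside the annotated span of a protein-coding gene and more than 10 kb from both ends of every protein-coding gene. This held for 5000 of 32912 summits (15.2%, exact 95% binomial interval 14.8 to 15.6). The closest member lay 10001 bases from a gene end and the farthest summit left out inside a gene lay 10000 bases away, with 208 members 10 to 11 kb and 246 other in-gene summits 9 to 10 kb from an end. Because a host gene had to exceed 20 kb to hold such a position, the set was called deep summits in long genes, although the rule has no other lower limit on length.

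ZGLP1 carries zinc fingers of the GATA type. The series' title calls it a determinant of the oogenic fate, the path by which fetal germ cells of females enter meiosis and become oocytes. The cells carried a V5-tagged Zglp1 whose expression was switched on with doxycycline (Dox), and the tagged protein was collected with a rabbit polyclonal antibody against V5. The 8 libraries comprised 5 ChIP libraries from equal numbers of cells and 3 inputs, with 1 library per group and no replicate. Culture day 7 and day 8 primordial germ cell-like cells (PGCLCs, germ cells made in culture from embryonic stem cells) had been treated from day 3, either with Dox only or with Dox and retinoic acid (RA). Embryonic stem cells (ESCs) had received Dox with RA for 24 h. Inputs came from the day 8 PGCLCs of either treatment and from the ESCs. All cells were of the strain C57BL/6 x DBA2, and the protocols name the ESC lines H18 BVSC and BDF1-2-1 BVSC without saying which gave each library. PGCLCs were sorted for SC and mCherry and ESCs for mCherry, so the sorted cells of every group had been selected for mCherry. Every library came from cells in which the tagged protein was made from an introduced gene, and no library without Dox was among them. The deposited list gives 1 base per summit for all peaks together, with no library, height or score, so neither treatments nor cell types could be compared, the depth behind a summit is unknown, and the identity of the cells could not be checked against marker genes.

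A gene's body can carry alternative promoters, from which shorter transcripts start, and enhancers, which act on the same or on other genes and often sit in introns. Promoters of widely used and developmental genes often lie in CpG islands, stretches rich in the dinucleotide CG, while many tissue-restricted promoters do not. Factors of the GATA family recognise short sequences with GATA at their core, at promoters and at enhancers far from them.

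As examples of deep starts, not of deep summits in general, the 250 bases before 7 annotated transcription starts deep inside genes are given. Each has a summit within 1 kb, and the sequences of 2 deep starts with none within 10 kb follow. They are from RefSeq on GRCm38.p6, 5′ to 3′ along the gene, in lower case with every CG in capitals, and they were chosen after their values were seen. The first 4 had a CpG ratio over 0.6, where the CpG ratio is the number of CG dinucleotides over that given by the C and G content of 300 bases, 250 before and 50 after the start. They belong to Prdm1 (chr10:44458749-44458998, minus strand), which encodes a repressor needed to specify germ cells, Zfhx3 (chr8:108714394-108714643, plus strand), a zinc finger homeobox gene, Rbpj (chr5:53590096-53590345, plus strand), the DNA-binding factor of Notch signalling, and Rarb (chr14:16575477-16575726, minus strand), an RA receptor.
Prdm1: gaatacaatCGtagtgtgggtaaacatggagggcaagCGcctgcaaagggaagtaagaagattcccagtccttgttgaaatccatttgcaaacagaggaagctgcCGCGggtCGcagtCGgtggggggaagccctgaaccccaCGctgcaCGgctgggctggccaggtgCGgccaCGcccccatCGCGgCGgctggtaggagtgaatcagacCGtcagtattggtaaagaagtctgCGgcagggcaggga
Zfhx3: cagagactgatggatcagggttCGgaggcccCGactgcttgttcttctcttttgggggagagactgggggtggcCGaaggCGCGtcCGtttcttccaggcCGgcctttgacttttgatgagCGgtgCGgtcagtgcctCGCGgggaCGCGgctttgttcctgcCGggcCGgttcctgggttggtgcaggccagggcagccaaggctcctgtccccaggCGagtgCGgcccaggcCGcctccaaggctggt
Rbpj: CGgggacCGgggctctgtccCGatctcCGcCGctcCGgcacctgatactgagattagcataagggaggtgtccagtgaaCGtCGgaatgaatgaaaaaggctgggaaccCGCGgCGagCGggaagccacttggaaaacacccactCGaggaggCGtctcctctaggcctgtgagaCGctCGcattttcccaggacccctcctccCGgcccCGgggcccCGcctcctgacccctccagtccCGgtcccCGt
Rarb: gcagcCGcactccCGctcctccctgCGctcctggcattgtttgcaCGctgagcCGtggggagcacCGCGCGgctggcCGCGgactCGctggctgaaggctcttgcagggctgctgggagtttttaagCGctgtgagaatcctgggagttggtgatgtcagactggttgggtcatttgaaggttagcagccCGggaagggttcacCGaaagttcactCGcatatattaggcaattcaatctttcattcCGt

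Another 3 deep starts had a summit but a CpG ratio up to 0.6, as their few capitals show. They belong to Lef1 (chr3:131156044-131156293, plus strand), a nuclear factor of WNT signalling, Daam1 (chr12:71889293-71889542, plus strand), a formin that builds actin filaments, and Esrrb (chr12:86421394-86421643, plus strand), an orphan nuclear receptor of naive pluripotency.
Lef1: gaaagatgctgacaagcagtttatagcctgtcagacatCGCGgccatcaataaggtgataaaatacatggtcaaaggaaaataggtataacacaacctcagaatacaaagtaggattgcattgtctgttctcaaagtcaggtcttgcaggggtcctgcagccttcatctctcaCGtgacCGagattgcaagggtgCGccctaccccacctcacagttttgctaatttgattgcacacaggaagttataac
Daam1: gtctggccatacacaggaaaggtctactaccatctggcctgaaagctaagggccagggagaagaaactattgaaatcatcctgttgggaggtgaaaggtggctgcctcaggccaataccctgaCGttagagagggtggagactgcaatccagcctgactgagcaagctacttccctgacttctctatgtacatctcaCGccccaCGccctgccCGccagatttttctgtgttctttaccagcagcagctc
Esrrb: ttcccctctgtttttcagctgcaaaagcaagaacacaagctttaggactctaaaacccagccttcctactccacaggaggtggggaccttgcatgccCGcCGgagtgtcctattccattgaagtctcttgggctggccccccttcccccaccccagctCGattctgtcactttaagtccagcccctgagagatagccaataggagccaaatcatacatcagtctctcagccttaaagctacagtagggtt

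The deep starts of 2 calcium channel genes, Cacna1d (chr14:30353487-30353736, minus strand) and Cacna1c (chr6:119108496-119108745, minus strand), had the highest CpG ratios among the deep starts of listed and named genes without a summit within 10 kb. They show that a CG-rich start could lie far from every summit.
Cacna1d: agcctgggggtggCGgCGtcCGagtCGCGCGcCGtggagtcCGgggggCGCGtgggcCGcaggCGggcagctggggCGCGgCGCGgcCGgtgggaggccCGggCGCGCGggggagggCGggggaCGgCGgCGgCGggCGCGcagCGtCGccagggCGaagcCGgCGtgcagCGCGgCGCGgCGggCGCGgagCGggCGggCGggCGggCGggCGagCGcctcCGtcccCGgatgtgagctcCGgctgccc
Cacna1c: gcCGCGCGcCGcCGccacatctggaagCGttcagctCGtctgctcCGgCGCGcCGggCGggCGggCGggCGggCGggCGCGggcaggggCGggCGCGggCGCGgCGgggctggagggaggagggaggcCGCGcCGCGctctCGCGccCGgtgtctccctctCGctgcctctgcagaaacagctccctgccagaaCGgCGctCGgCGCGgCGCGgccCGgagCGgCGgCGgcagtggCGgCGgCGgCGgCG

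The 250 bases of the first 4 starts held 15 CG dinucleotides in Prdm1, 18 in Zfhx3, 21 in Rbpj and 16 in Rarb. Those of Lef1 held 5, of Daam1 4 and of Esrrb 3, against 50 in Cacna1d and 48 in Cacna1c. The summits lay 27 bases after the start in Prdm1, 32 after it in Zfhx3, 47 after it in Rbpj and 57 before it in Rarb. They lay 19 bases after the start in Lef1 and 50 after it in both Daam1 and Esrrb. Except in Rarb, the summit thus lay outside the printed bases. The closest summit to the Cacna1c start was 66712 bases away and that to the Cacna1d start 126066 bases away.

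Deep summits were spread over many genes. They lay in 2447 of 9823 protein-coding genes with some sequence over 10 kb from every gene end (24.9%, exact 95% binomial interval 24.1 to 25.8), here called eligible genes. These genes had a median length of 96.6 kb, against 41.7 kb for eligible genes without a deep summit. A single deep summit was found in 1411 genes, 2 in 485, 3 to 4 in 351, 5 to 9 in 166 and 10 or more in 34. The 34 genes with 10 or more held 457 summits, 9.10% of the 5020 pairs of a summit and its gene, and 508 genes sufficed for 50% of them. Overlapping genes shared 19 of the summits. By the same counts, 10.5% of eligible genes held 2 or more and 2.04% held 5 or more.

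Distances from the nearest gene end had a median of 30943 bases, with quartiles at 17471 and 59095, and 593 members lay over 100 kb and 169 over 200 kb from any end. The most remote, at position 46253491 of chromosome 6, lay 1047902 bases from an end inside Cntnap2, a neuronal adhesion gene of the neurexin family. Over the 735 Mb of deep gene body, the summed sequence over 10 kb from every protein-coding end, there were 6.80 deep summits per Mb (exact 95% Poisson interval 6.61 to 6.99).

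Longer genes more often held a deep summit but held fewer per Mb. Of genes with up to 10 kb of deep body 5.53% had at least 1, rising to 15.8% at 10 to 30 kb, 31.2% at 30 to 100 kb and 50.6% at 100 to 300 kb. The share was 59.8% at 300 kb to 1 Mb and 56.4% over 1 Mb (31 of 55 genes), where the intervals overlapped. Per Mb, the same classes held 13.9, 11.3, 10.4, 7.48, 3.66 and 1.45 deep summits. The intervals of the last 3 classes did not overlap those of any other.

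**Figure D1:**
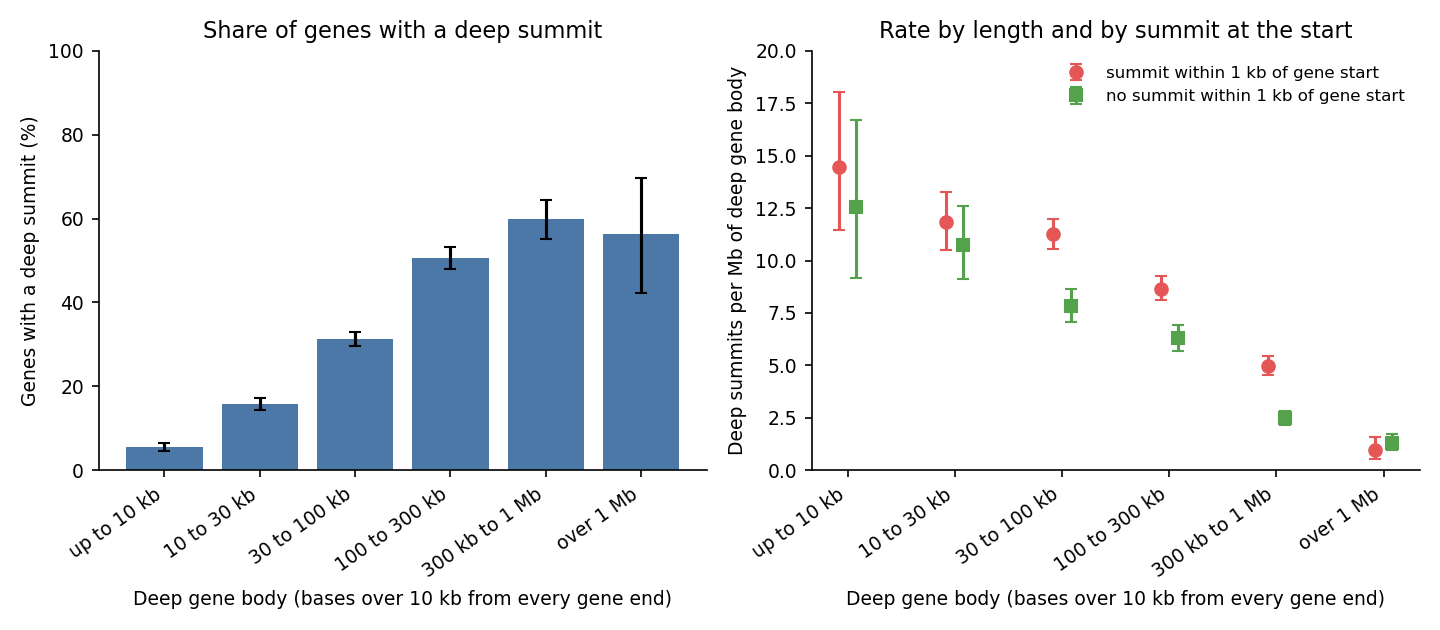
Left, percent of eligible genes with a deep summit (bars, exact 95% binomial intervals) by length of deep gene body; right, deep summits per Mb (points, exact 95% Poisson intervals) in genes with and without a summit within 1 kb of their own start. The share rises from 5.53% to 59.8% and then levels, while the rates fall with length in either group.

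Whether deep summits went with a summit at the gene's own start was read in 7796 eligible genes whose strand is known from the listed starts. In the 4821 genes with a summit within 1 kb of the start, 26.8% had a deep summit, at 8.27 per Mb (7.96 to 8.59). In the 2975 genes without one, 20.9% did, at 4.95 per Mb (4.68 to 5.23). Median gene length was alike, 49.9 and 48.7 kb. The difference was 11.3 against 7.83 per Mb in genes with 30 to 100 kb of deep body, 8.66 against 6.30 at 100 to 300 kb and 4.97 against 2.47 at 300 kb to 1 Mb, with intervals that did not overlap. Under 30 kb and over 1 Mb the intervals overlapped, and over 1 Mb the order was the other way, 0.980 against 1.31.

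Within genes, deep summits became sparser away from the start over all genes, but not evenly in every length class. Over all genes with a strand there were 11.3 per Mb at 10 to 20 kb from the start, 9.06 at 30 to 50 kb, 5.26 at 100 to 200 kb and 2.67 over 500 kb. Measured from the end of the gene, rates were 9.72 at 10 to 20 kb, 9.10 at 30 to 50 kb, 6.65 at 100 to 200 kb and 1.01 over 500 kb. The far classes can come only from very long genes. In genes with 100 to 300 kb of deep body the rate went from 10.8 at 10 to 20 kb from the start to 6.63 at 100 to 200 kb. In those with 300 kb to 1 Mb it was 3.81 at 10 to 20 kb, 3.76 at 200 to 500 kb and 4.38 over 500 kb, with overlapping intervals. Start and end sides were used about equally: 50.9% of 3938 deep summits (49.3 to 52.4) lay in the part of the deep body nearer the start, which makes up 50.0% of its bases.

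At a given distance from gene ends, the inside of genes held more summits than the space between them. At 10 to 20 kb from the nearest protein-coding end there were 10.2 summits per Mb inside genes (9.72 to 10.7) and 8.86 between them (8.38 to 9.36). At 20 to 50 kb the rates were 8.53 and 6.89, and at 50 to 100 kb 6.38 and 4.13. Over 100 kb they were 2.80 (2.58 to 3.04) and 1.35 (1.27 to 1.44). None of these pairs of intervals overlapped. Stretches of unknown sequence in the genome build count towards the length between genes and were not left out.

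**Figure D2:**
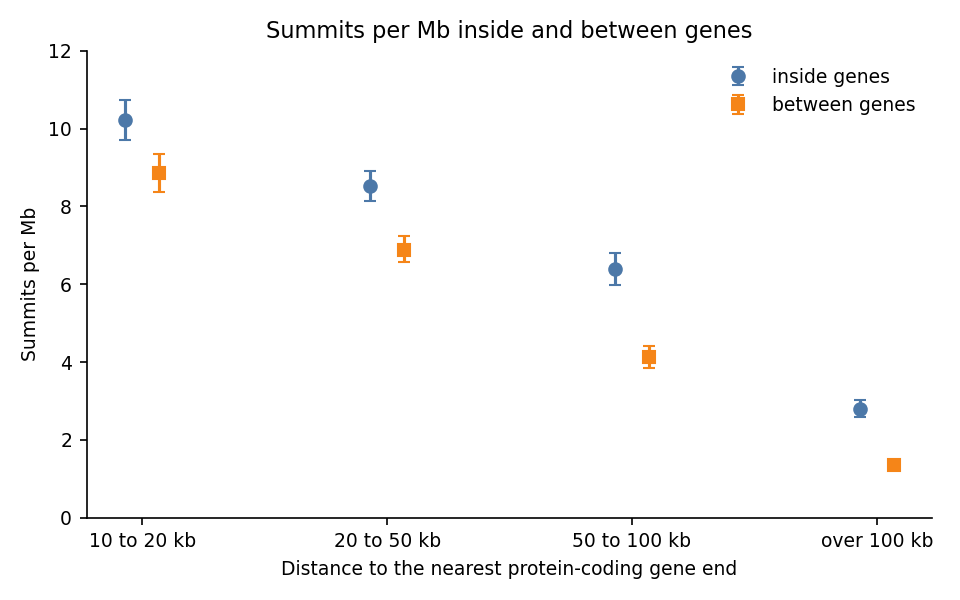
Summits per Mb (points, exact 95% Poisson intervals) inside and between protein-coding genes, by distance to the nearest protein-coding gene end. The inside of genes is higher in each of the 4 distance classes, by 10.2 against 8.86 nearest to the ends and by 2.80 against 1.35 farthest from them.

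Deep summits stood more apart from each other than summits near gene ends. Another summit lay within 1 kb of 12.0% of them (11.1 to 12.9), against 43.1% of the 13911 summits within 1 kb of a gene end and 25.3% of the 9270 summits 1 to 10 kb from an end. Within 1 kb, summits between genes were like the deep ones at 10 to 50 kb from an end (10.9%, 9.78 to 12.1). Their share was lower over 50 kb from an end (8.16%, 6.95 to 9.51). Another summit lay within 10 kb of 40.9% of deep summits (39.6 to 42.3). For summits between genes this share was 45.7% at 10 to 50 kb (43.9 to 47.6) and 25.6% farther out (23.6 to 27.6). The median distance from a deep summit to the nearest other summit was 14102 bases. Between genes it was 11636 bases at 10 to 50 kb from an end and 45361 bases farther out. Inside 1 gene, neighbouring deep summits lay 12511 bases apart in the median, and 32.8% of 2573 such gaps were under 5 kb. No neighbouring summits of the list were closer than 397 bases.

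Few deep summits marked an annotated transcript start. On the 19 chromosomes with listed starts, 487 of 4815 members (10.1%) lay within 1 kb of a protein-coding start, 290 of them within 250 bases. Within 1 kb of a start of a long noncoding RNA (lncRNA) lay 143 (2.97%). The other 4232 (87.9%) lay within 1 kb of no listed start. The RefSeq starts are not complete, so this share is an upper value for summits away from any promoter. Either end of a gene that does not encode protein lay within 1 kb of 5.84% of members, mostly lncRNA genes (4.76%). Those shares were 16.1% and 11.6% for summits between genes at 10 to 50 kb from a protein-coding end, and 11.7% and 9.74% farther out. A transfer RNA gene lay within 1 kb of 1 of the 5000 members and of 75 of the 2893 summits between genes at 10 to 50 kb.

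Read from the other side, deep starts of protein-coding genes often had a summit when rich in CG. Of 1490 listed starts over 10 kb from every gene end, in 1082 genes, 448 had a summit within 1 kb (30.1%, 27.7 to 32.5). Of 365 with a CpG ratio over 0.6, 280 did (76.7%, 72.0 to 81.0), and of 1125 with a lower ratio 168 did (14.9%, 12.9 to 17.2). Starts from 500 bases to 10 kb from a gene end were left out. The same contrast held at outer starts, within 500 bases of a protein-coding gene end, with 90.5% of 8133 and 22.0% of 8011. It was lower in each case for deep lncRNA starts, with 42.5% of 106 and 6.35% of 1654, and for lncRNA starts between genes, with 31.1% of 289 and 4.60% of 5720. CG-poor deep starts with a summit still had a higher median CpG ratio than those without, 0.370 against 0.247. Starts a few bases apart can share a summit and are not independent.

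**Figure D3:**
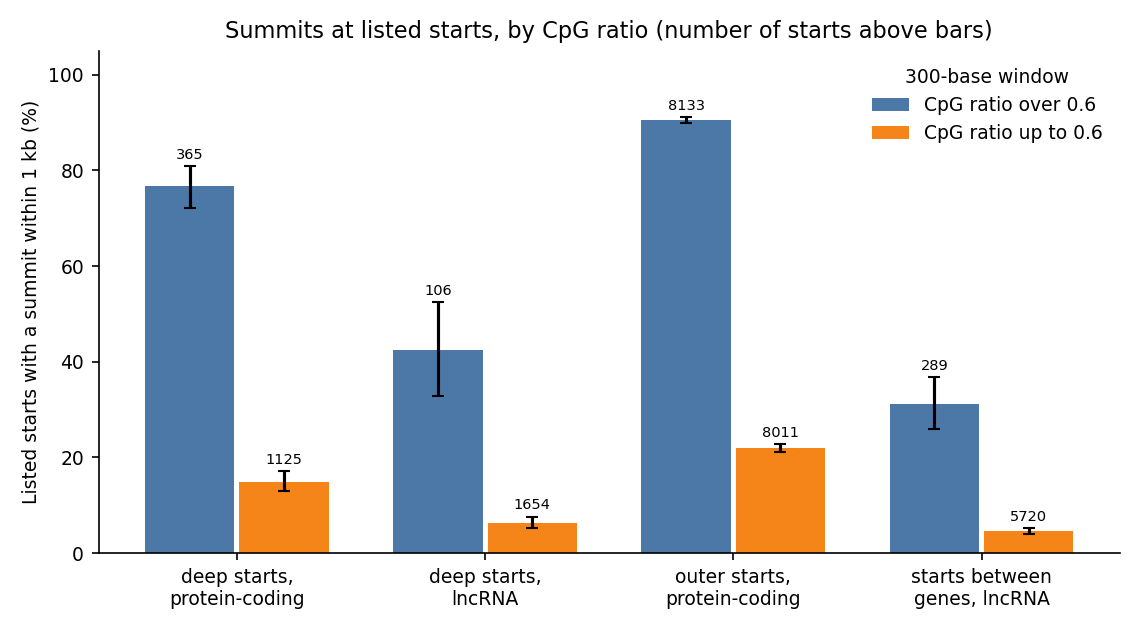
Percent of listed starts with a summit within 1 kb (bars, exact 95% binomial intervals; number of starts above each bar), split at a CpG ratio of 0.6 over 300 bases. Deep protein-coding starts reach 76.7% and 14.9%, below the outer starts at 90.5% and 22.0% and above both lncRNA groups.

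Gene spans are the widest over annotated transcripts, so a deep start may be an alternative start or the gene's commonly used one. A listed start within 500 bases of the outer start was present in the genes of 799 deep starts, of which 225 had a summit (28.2%). In genes without such a start 223 of 691 did (32.3%), and the intervals overlapped. Among 282 genes with at least 2 deep starts, 154 had a summit at none, 80 at some and 48 at all. Csnk1e, a casein kinase gene, had 4 deep starts that share the same summit, at distances from 154 to 479 bases. These starts lie between 79441818 and 79442143 on chromosome 15. Fgf12, a fibroblast growth factor homolog, had a summit within 1 kb of 3 deep starts, of which those at 28564495 and 28564951 on chromosome 16 share a summit 157 and 613 bases away. Runx1, a blood stem cell factor, had one 263 bases from its deep start at 92697329 on chromosome 16, with a CpG ratio of 1.01, and Foxp1, a forkhead factor, one at 313 bases with a ratio of 1.11.

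Short sequences recognised by known factors were counted on both strands of the 300-base windows of listed starts. The GC box GGGCGG, bound by SP and KLF factors, was in 64.1% of deep protein-coding starts with a summit and 18.04% of those without, against 35.9% of all 32619 windows. The ETS site CCGGAAG was in 9.38%, 1.92% and 8.92% of the same groups, the cAMP response core TGACGT in 9.82%, 4.70% and 7.56%, and the CTCF core AGGGGGC in 19.2%, 7.68% and 10.7%. The GATA forms went the other way: AGATAA was in 5.13% of deep starts with a summit, 11.8% without and 11.2% of all windows, and TGATAA in 4.02%, 10.5% and 9.001%. The SOX site ACAAAG (13.6%, 25.6% and 18.7%), the nuclear receptor site AGGTCA (12.7%, 19.9% and 16.2%) and the AP-1 site TGANTCA (5.36%, 10.4% and 7.85%) did likewise. The octamer core ATGCAAA (6.25% with and 5.76% without) and the E-box CACGTG (4.69% and 4.51%) had overlapping intervals. Median GC content also differed, 62.3% at deep starts with a summit and 49.2% without, and its part in these counts was not tested. They describe windows at starts, not the sequence under the summits, which was not analysed here.

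The 10 genes with most deep summits held between 14 and 33 each. Gse1, which encodes a protein of a histone deacetylase complex, had 33 in 333 kb of deep body on chromosome 8, 99.2 per Mb. Of these, 10 lay between 120242994 and 120337104 and 17 between 120487554 and 120538687, where the gene has 3 deep starts, each with a summit within 1 kb. Sfi1, a centrosome gene on chromosome 11, had 32 in 49.7 kb, or 644 per Mb, with a median gap of 1228 bases. It belongs to a dense run of summits, and the handling of reads that match several places is not stated in the sources used here. Esrrb had 17 in 141 kb, which were all the summits in the gene. The closest summit to its outer start was 16766 bases away and that to its end 9240. Its summits at 86421694 and 86422412 lay 50 and 768 bases from the deep start printed above, and 11 more ran from 86466312 to 86504609.

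Zfhx3 also had 17, all between 108595103 and 108886817 on chromosome 8. Its outer start had no summit nearer than 315792 bases. Those at 108714676 and 108715259 lay 32 and 615 bases from the deep start printed above. Dst, which encodes the cytoskeletal linker dystonin, had 16 in 381 kb, of which those at 34011279 and 34012061 lay 316 and 466 bases from a deep start. Auts2, a neurodevelopmental gene linked to Polycomb complexes, had 15 in 1086 kb, of which 10 lay between 131450528 and 131594040 on chromosome 5. Dlgap1, a postsynaptic scaffold gene, had 15 in 832 kb, of which 13 fell between 70737680 and 70781037 on chromosome 17.

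Zmynd8, a chromatin reader gene, had 15 in 94.8 kb, with summits at 2 of its 5 deep starts. Slc2a3, the glucose transporter GLUT3, had 14 in 54.6 kb (257 per Mb), with a median gap of 1430 bases. Tex14, needed for the bridges between germ cells, had 14 in 131 kb, all within 69.3 kb between 87423061 and 87492360 on chromosome 11.

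**Figure D4:**
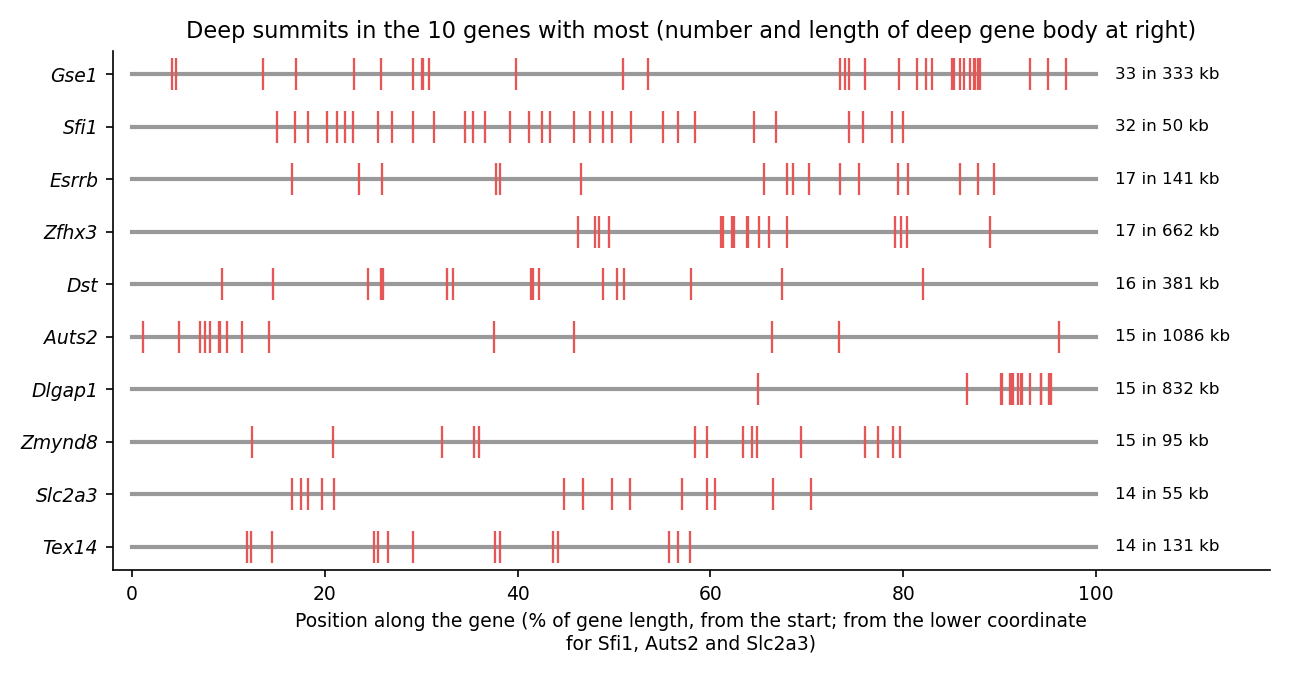
Positions of deep summits (red ticks) along the 10 genes with most of them (grey lines, each scaled to its gene's length and drawn from the start, or from the lower coordinate for Sfi1, Auts2 and Slc2a3, whose strand was not used). Sfi1 carries 32 in 50 kb, more densely towards its lower coordinates, while Zfhx3, Auts2 and Dlgap1 carry most or all of their summits in part of the gene.

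Among genes with at least 5 deep summits, the highest rates after Sfi1 were those of Rara, the retinoic acid receptor alpha gene, with 6 in 12.7 kb (473 per Mb, 173 to 1029), and C77080, with 8 in 21.8 kb (367 per Mb). Plec, which encodes the cytolinker plectin, had 11 (272 per Mb), and Agap3, which encodes a GTPase-activating protein, had 8 (268 per Mb). Pknox1, a homeobox gene, and Plekhg5 had 6 each (261 per Mb for either). Rgma, a BMP co-receptor gene, had 6 (246 per Mb) and Trim71, an RNA-binding regulator of early development, 8 (242 per Mb). Slc2a3 stood among them at 257. The order of these 10 rates is not firm, since all their intervals overlapped except those of Sfi1 and Slc2a3.

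The longest genes held few. Ptprd, a receptor phosphatase gene, had 5 in 2251 kb and Cntnap2 had 5 in 2221 kb. Fhit, at a fragile site, had 4, Lsamp and Nrxn3, neuronal adhesion genes, 2 each, and Lrp1b and Csmd1 1 each. The Nrxn3 summit at 172 bases from a deep start (CpG ratio 0.588) and the Cntnap2 summit at 82 bases from one (0.191) lay at starts inside these genes. No deep summit was listed in Dmd, the dystrophin gene, over 2297 kb, where a count of 0 allows up to 1.31 per Mb. The same was true of Dlg2 (up to 1.54), Macrod2 (up to 1.54), Robo2 (up to 1.95) and Pcdh15 (up to 1.96). Dlg2 and Macrod2 did have a summit 35 and 47 bases from their outer start.

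Genes were also read in 11 lists, each set against all eligible genes, of which 24.9% had a deep summit, at 6.77 per Mb counted over genes. Since longer genes more often have one, each list's share is also given beside the share that all eligible genes of the same length classes had. In the pluripotency list 10 of 15 eligible genes (66.7%) had a deep summit, against 34.3% at the same lengths, with 51 summits at 44.8 per Mb (33.4 to 58.9). Leaving out Esrrb, the rate was 34.1. Etv5, an ETS factor, had 7 in 38.3 kb, Trim71 8 and Tcf7l1, a repressor of WNT targets, 6, while Dnmt3b, Il6st, Lin28b, Rif1 and Smarcad1 had none.

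The retinoic acid list had a deep summit in 12 of 20 (60.0%, against 30.3%), at 10.5 per Mb (6.60 to 15.9), or 7.71 without Rara. The interval of this rate holds the 6.77 per Mb of all eligible genes. All 3 RA receptor genes had some: Rara 6, Rarb 3 and Rarg 2. In Rarb, whose outer start lay 90465 bases from its nearest summit, the deep start printed above had summits 57 and 2538 bases away. In Rarg both members, at 102246346 and 102247128 on chromosome 15, lay 154 and 628 bases from a deep start. Among the 8 eligible genes of the list without a deep summit were Aldh1a1, Aldh1a3, Dhrs3, Rdh10, Rxrg, Ncoa2 and Tbl1x. The list's excess over all eligible genes, 35.1 percentage points, was 14.45 by 2 or more deep summits and 18.4 over 20 kb from gene ends.

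Of the germ cell and meiosis genes 8 of 43 (18.6%, 8.39 to 33.4) had a deep summit, against 27.3% at the same lengths. The 36 summits gave 12.4 per Mb, but 14 of them were in Tex14 and the rate without it was 7.97. Prdm1 had 9 in 71.4 kb, and the nearest summit lay 32 bases from its outer start and 27 bases from its deep start. Kit, the receptor of stem cell factor, had 5 between 75597547 and 75624394 on chromosome 5, and Rad51b, a recombination gene, 4 in 531 kb. Among the 35 without were Ddx4, Dmc1, Sycp1, Sycp2, Stag3, Msh4 and Hormad1.

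The WNT, Notch, Hedgehog and FGF list had 28 of 43 (65.1%, against 40.4%), at 8.38 per Mb (6.45 to 10.7), or 7.48 without Ror2. The interval of this rate holds the 6.77 per Mb of all eligible genes. Ror2, a WNT receptor, had 8, Maml3, a Notch coactivator, 6, and Rbpj 5 within 5.87 kb, of which those at 53590393 and 53589424 lay 47 and 922 bases from a deep start. Notch1, Jag1, Gli2, Gli3, Lrp5 and Lrp6 had none. The TGF-beta and BMP list had 14 of 33 (42.4%, against 33.9%), at 8.30 per Mb (5.52 to 12.0). Its excess over all eligible genes, 17.5 percentage points, was 3.30 over 20 kb from gene ends. Ski, a SMAD co-repressor, and Acvr1, a BMP type I receptor, had 4 each, Tgfbr3, a co-receptor, 3 and the inhibitory Smad7 2. The receptor genes Bmpr1a, Bmpr1b, Bmpr2 and Tgfbr1 and the signal transducers Smad1, Smad2, Smad4 and Smad5 had none.

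Of transcription factor genes, 43 of 63 (68.3%, against 49.9%) had a deep summit and 31 had 2 or more, at 10.0 per Mb. After Zfhx3 and Esrrb came Casz1, a zinc finger factor, with 12 in 131 kb, and Foxn3, a forkhead factor, with 11. Zeb1, Zeb2, Mef2a, Mef2c and Thrb were among the 20 without. Of chromatin regulators, 23 of 51 (45.1%, against 39.1%) had one, at 10.4 per Mb, or 8.75 without Kdm2b. The excess over all eligible genes, 20.2 percentage points, was 4.92 over 20 kb from gene ends. Kdm2b, a histone demethylase that brings a Polycomb complex to CpG islands, had 12, of which those at 122900139 and 122900728 on chromosome 5 lay 211 and 361 bases from a deep start. Arid1b, of the BAF remodeller, had 8 and Rere, a co-repressor gene, 7.

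The haematopoietic GATA-linked list had 15 of 23 (65.2%, against 33.4%), at 12.8 per Mb. Kit had 5. Zfpm1, the GATA partner FOG1, Cbfa2t3, a blood co-repressor, and Epb41, of the red cell membrane skeleton, had 3 each, while Gata3, Gata6, Bcl11a and Tfrc had none.

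The synaptic adhesion and axon guidance list had 26 of 42 (61.9%, against 57.2%) with 88 summits at 2.06 per Mb (1.65 to 2.54), and 88.8 summits at the rates of its length classes. Cdh13, a cadherin, had 10, Tenm3 7 and Kirrel3 6. Ion channel and glutamate receptor genes had 13 of 38 (34.2%, 19.6 to 51.4, against 58.1%) and 35 summits where their length classes gave 74.4. Cacna1a, a calcium channel, held 11 of the 35, spread over 252 kb, and the rate of 1.65 per Mb fell to 1.14 without it. Grik4 had 5, Ryr2 and Dpp6 3 each, and Cacna1c, Grin2a, Grm5, Gria4 and Kcnd2 were among the 25 without. Giant genes of fragile sites had 20 of 32 (62.5%, against 57.6%) at 2.41 per Mb, with 11 in Pde4d, a phosphodiesterase, and 8 in Rbfox3, a splicing factor. Their summits numbered 84, or 69 without Auts2, where the length classes of the full list gave 68.3.

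**Figure D5:**
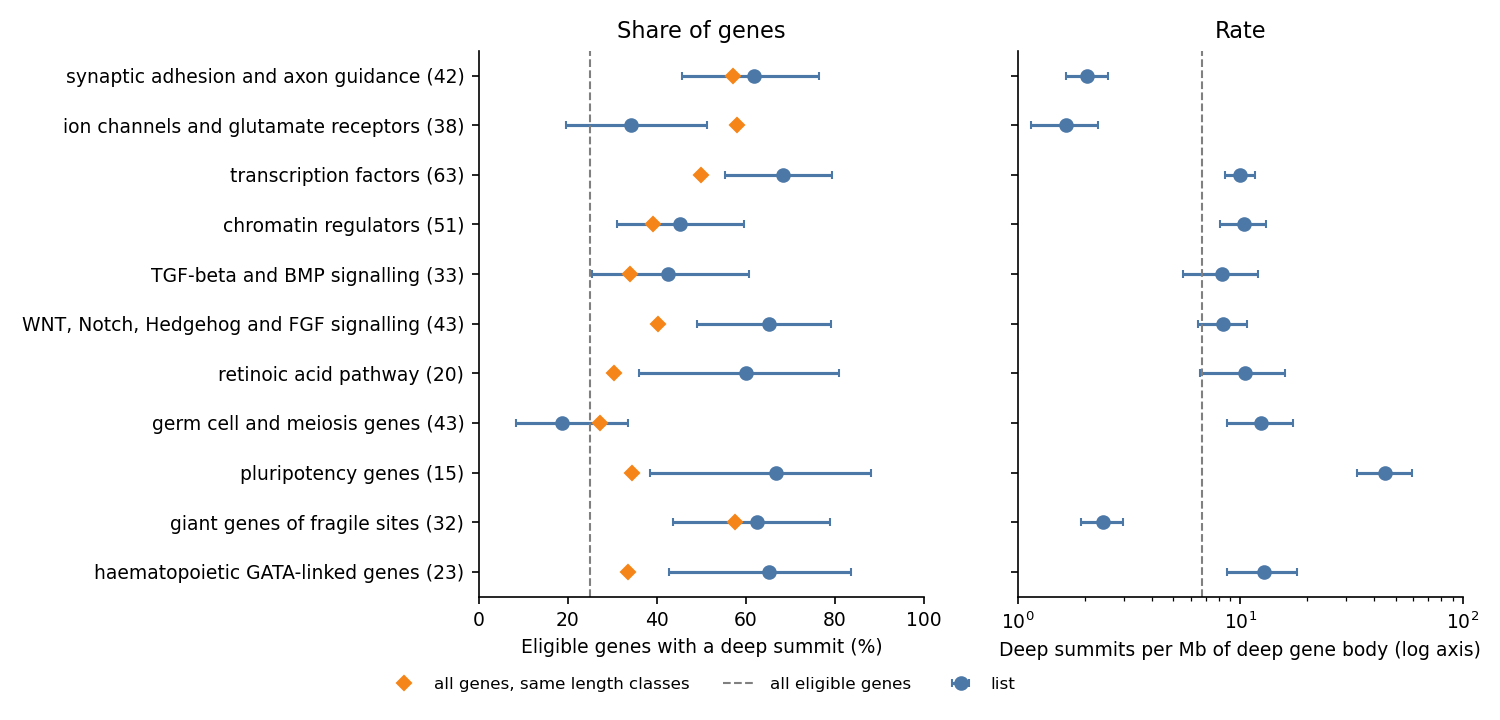
Left, percent of eligible genes with a deep summit in 11 gene lists (blue, exact 95% binomial intervals; number of eligible genes in brackets), beside all eligible genes of the same length classes (orange) and all eligible genes (dashed, 24.9%); right, deep summits per Mb on a log axis (exact 95% Poisson intervals). Pluripotency genes stand at 44.8 per Mb and ion channel genes at 1.65.

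The X chromosome held 16 deep summits in 15 of 398 eligible genes (3.77%, 2.12 to 6.14), at 0.481 per Mb, against 25.8% of 9425 autosomal genes at 7.10 per Mb, a ratio of 0.0677. Bcor, a BCL6 co-repressor that works with Polycomb proteins, and Nhsl2 had 2 each. The other 13 genes had 1, among them Araf, a kinase, Zfx, a zinc finger factor, and L1cam, an adhesion gene. Of 71 deep starts on X, 6 had a summit within 1 kb, against 448 of 1490 deep protein-coding starts in all (30.1%). Autosomes ranged from 4.38 per Mb on chromosome 1 to 11.8 on chromosome 11, or 10.9 on chromosome 11 without Sfi1.

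Of 1005 annotated microRNA hairpins, 14 lay within 1 kb of a deep summit, and 2 had the summit inside them: Mir128-2 in Arpp21, a neuronal gene, and Gm51279, the hairpin of miR-12203, in Homer2, a postsynaptic scaffold gene. Mir7687 in Gse1 lay 9 bases from a summit, Mir6352 in Epha4 97, Mir874 in Klhl3 252, Mir181b-2 in Nr6a1 601 and Mir342 in Evl 989. A microRNA gene lay within 1 kb of 17 deep summits, or 0.34% (0.198 to 0.544). For summits between genes the share was 0.311% at 10 to 50 kb from a protein-coding end (0.142 to 0.590) and 0.163% farther out (0.0337 to 0.476). These intervals overlapped, but only 9 and 3 summits lie behind the latter shares, too few to tell a difference. Summits within 10 kb of a gene end were not compared. The mature forms of the hairpins closest to a summit, and of the conserved Mir181b-2, are shown from RefSeq with the seed, bases 2 to 8, in capitals. No pair of the 21 mature sequences found for 13 of the hairpins shared a seed.
mmu-miR-128-3p: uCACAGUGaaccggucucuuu
mmu-miR-128-2-5p: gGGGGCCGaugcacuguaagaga
mmu-miR-12203-3p: aUGGAAUCucucccucuggucu
mmu-miR-12203-5p: uGCCGGAGggaucgauugcuu
mmu-miR-7687-5p: aGGCGGGGaaccugaggcgcaggcu
mmu-miR-7687-3p: cCACUCAGucgccccgccaca
mmu-miR-181b-5p: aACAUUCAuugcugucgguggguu
mmu-miR-181b-2-3p: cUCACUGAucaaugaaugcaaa
The list does not show whether these hairpins were transcribed in the cells.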

How the data were processed

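Of the 8 libraries, only the authors' list of summits was used. The values the authors deposited are positions in bases, of the kind other than a count or signal, 1 per summit, with start equal to end for all 32927. Whether they count from 0 or 1 is not stated in the sources used here and moves a distance by 1 base. Per the submitters' processing notes, the build was mm10 and the tools included MACS2 2.1.1.20160309 (a peak caller) and Bowtie 1.1.2 (an aligner), beside HOMER 4.9.1, SAMtools 1.3, Picard 2.1.0, cutadapt 1.9.1 and Trim Galore 0.4.1. Settings are not listed there, nor which libraries and threshold gave the list.

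Summits were set against 21631 protein-coding genes of a RefSeq gene table of GRCm38.p6. Strand and starts came from 32619 RefSeq start windows, none of them on chromosome 18, and in 10370 of 17274 protein-coding genes a listed start was the gene's own outer base. Sequence around summits, exons and repeats were planned but not analysed here, and start windows took their place. Rates are per Mb of deep gene body. Intervals are exact 95% binomial or Poisson intervals, cover counting error only and treat summits as independent, so they are too narrow where summits cluster. No test was run, since there is 1 list and no replicate.

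Named genes were the 10 with most deep summits, the 10 with most per Mb among those with 5 or more, the 10 longest, the 5 longest without a deep summit and the 4 members of each list with most. Other genes, and the printed starts and hairpins, were named after their values were seen. The members and lists were chosen with earlier results of these data known. Of the list names, Park2 and Eys had no match, and 16 genes stand in more than 1 list. Another list and some genes are not reported here. Alternatives covered other distances, ends of every annotated gene, merged summits and other CpG limits. On simulated data, the script returned the membership of 300 of 300 positions. For summits drawn inside deep bodies by the same definition, it returned the counts of 9575 of 9575 genes. These counts check the code alone, and genes that share deep sequence with another were left out. The rate came back as 25.8 per Mb in genes set at 28.0 and 6.86 in those set at 7.0. Intervals came from SciPy 1.17.1, tables from pandas 2.3.3 with numpy 2.4.6 and figures from matplotlib 3.10.9, under Python 3.11.15.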

Additional observations from a re-analysis of the deposited data

How the results depend on the processing

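Of 75 alternative values of 23 results, 51 stayed within the main value's interval or, for counts, within 1.5 times it, and 24 moved. A reversal could be called only for the 36 gene list values, which are differences, and 0 of these reversed. The share of summits that were deep, 15.2%, was 20.3% over 5 kb from every end, 10.45% over 20 kb, 11.78% with the ends of every annotated gene and 16.85% with summits within 1 kb merged, and the rate per Mb was 7.828, 5.902, 6.142 and 6.37. The share of eligible genes was 27.73% at 20 kb and 22.45% with every annotated end. Neighbours within 1 kb were 10.06% with every annotated end, and 0.12% had one within 500 bases, since the list holds almost none so close. Noncoding ends within 5 kb were at 14.68%. The chromatin list's excess over all eligible genes, 20.2 percentage points, was 4.919 at 20 kb, and that of the WNT, Notch, Hedgehog and FGF list, 40.2, was 22.01 by 2 or more summits and 24.9 at 20 kb. The TGF-beta and BMP excess, 17.5, was 3.30 at 20 kb, and the retinoic acid excess, 35.1, was 14.45 by 2 or more summits and 18.4 at 20 kb. The germ cell list stood at -6.31 points, and at -1.24 by 2 or more. The X to autosome ratio was 0.1461 by percent of genes, and the share nearer the start 49.19% at 20 kb. CG-rich deep starts with a summit were 68.7% at a CpG limit of 0.5, 81.57% at 0.75 and 70.68% within 500 bases. CG-poor ones were 11.93%, 21.29% and 12.53%, and 22.31% within 5 kb. The cause was not tested. The CpG settings, the start sides away from listed starts, leaving out Sfi1 and merging for the spread over genes were added after seeing the data. The planned windows of other lengths around summits were not run. No paired analysis was possible because groups hold a single library each and summits carry no library name. Depth is unknown, so a gene without a deep summit may be bound below the authors' threshold.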
